A study of Mus musculus with 72 samples.

Results

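The mPGK reporters that had landed on mouse chromosome 16 were 659 of 17857 mapped integrations. They were chosen by their listed chromosome alone, from all 6 pools, and no measured value decided which reporters were included. Earlier results of these data were known when this choice was made. A further 16841 integrations lay on the other autosomes. The assay, TRIP, reads many identical reporter genes in parallel, each marked by a random DNA barcode and inserted at a different place in the genome. The host cells were EBRTcH3 mouse embryonic stem cells, which make a tetracycline-controlled transactivator from the ROSA26 promoter and were kept in BRL-conditioned medium with leukemia inhibitory factor, the MEK inhibitor PD0325901 and the GSK-3 inhibitor CHIR99021. The reporters carried the mPGK promoter, were delivered as barcoded piggyBac plasmids together with mPB transposase, and were recovered in the pools mPGK-A, mPGK-B, mPGK-C, mPGK-D, mPGK-E and mPGK-F. All pools came from the cells that sorting had placed at low eGFP, so cells of the other sorted fractions are not represented. These cells grew for 5 days, the pools for 7 days, and the 2 cultures split from each pool for 7 days more. RNA and genomic DNA of each culture gave barcode reads, in 2 PCRs each, and sites were mapped by inverse PCR after DpnII digestion, which gives 72 libraries in 18 groups of 4.

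A gene placed at different points of a chromosome meets different surroundings: neighbouring enhancers, the density of genes, the packing of chromatin and contact with the nuclear lamina. Such differences in output of an identical gene are called position effects. The mPGK promoter drives the housekeeping enzyme phosphoglycerate kinase and is active in most cell types, so it is a common choice for a reporter that brings little tissue preference of its own. The piggyBac transposon joins at TTAA sequences and is known to favour open chromatin and active genes, which makes the number of integrations in a region uneven as well.

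Each reporter is known by its barcode, since the promoter and the transcript are otherwise the same. The barcodes of the reporters that mark the extremes of the chromosome are printed here with the mm9 position and strand of the integration. They are random tags, so no base is set in capitals. Positions are as listed, and since it is not stated whether they count from 0 or 1, each may be off by a single base. The first 5 had the highest expression on the chromosome, and the next 5 had DNA reads but no RNA read.
mPGK-E, chr16:38443524, minus strand: aacacgataattacgc
mPGK-E, chr16:13767306, minus strand: gacacttgcggtatta
mPGK-E, chr16:3884279, plus strand: atatccgaatagcagg
mPGK-E, chr16:9230757, minus strand: ttattagactaaacgg
mPGK-A, chr16:38445883, minus strand: attcaatcgtaattcg
mPGK-A, chr16:45213782, minus strand: caacgaagttcttccc
mPGK-C, chr16:61316976, plus strand: cgcgatgatggcgatc
mPGK-A, chr16:14896322, plus strand: tatgctcatactacac
mPGK-C, chr16:7477831, plus strand: aaagcctcggataaac
mPGK-D, chr16:70079222, plus strand: attattctaggctcaa

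The following barcodes belong to the close pairs of different pools that differed most, and are shown because each sits within 5 kb of a reporter with a very different value. The place of the first pair rests on the pseudocount given to a reporter without RNA, so the next pair in order is printed as well.
mPGK-F, chr16:57751268, minus strand: agtatatacgtagaac
mPGK-C, chr16:57751733, minus strand: aacaaactacatcgtg
mPGK-B, chr16:9228923, plus strand: tactcgtatcctaatg
mPGK-A, chr16:76313693, plus strand: agttctagcgatgcac
mPGK-B, chr16:76318432, plus strand: catgaaatcgtcgtga
mPGK-D, chr16:33379635, plus strand: tgacgaagccatagct
mPGK-E, chr16:33382813, plus strand: ggggacgtcagctcca

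Expression of a reporter is the log2 ratio of its share of RNA reads to its share of DNA reads, averaged over both cultures, with the pool median set to 0. A value of 1 therefore means an output 2-fold above the typical reporter of the pool. Totals over the listed barcodes lay between 3386477 and 3693449 DNA reads and between 2880244 and 3508366 RNA reads per pool and culture. A chromosome 16 reporter had a median of 1494 DNA reads and 530 RNA reads over both cultures, and the lowest had 104 DNA reads. The error of a single culture was 0.75 log2 units (SD, from the differences between cultures). It was 0.45 for the 440 reporters with at least 100 RNA reads in each culture and 1.14 for the others, so low values are less exact than high ones. The rank order of reporters was much the same in both cultures (Spearman's rho 0.942 across 659 reporters that share libraries).

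The level of chromosome 16 as a whole was that of a typical autosome. Its median was 0.01, and the range from the 5th to the 95th percentile, from -4.50 to 3.26, spanned 217-fold. Mean expression on chromosome 16 minus that on the other autosomes was -0.03 in mPGK-A, 0.30 in mPGK-B, -0.58 in mPGK-C, 0.24 in mPGK-D, -0.05 in mPGK-E and -0.002 in mPGK-F. The mean of these differences was -0.02 ± 0.31 (SD, n = 6 pools), with 2 pools above 0 and 4 below, and it was 0.09 without mPGK-C. Reporters more than 16-fold above the pool median numbered 10 (1.52%, against 2.52% on the other autosomes), those more than 16-fold below numbered 42 (6.37%, against 6.44%), and 8 had no RNA read (1.21%, against 1.03%). These shares were not tested against each other.

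In edgeR's quasi-likelihood test of RNA against DNA reads, with Benjamini-Hochberg adjustment over all 17857 integrations and a threshold of 0.05, 240 of the 659 reporters were called higher than their pool's median (36.4%, against 36.8% of all integrations) and 214 lower (32.5%, against 33.8%). The other 205 passed in neither direction. Both shares are near the background. DESeq2 called 242 higher (36.7%, background 37%) and 216 lower (32.8%, background 33.6%). At TMM scaling alone, with no shift, the edgeR counts were 213 higher and 249 lower (backgrounds 32.8% and 38.3%), so which side holds more calls depends on where 0 is set. In edgeR's own log2 ratios, the calls nearest 0 were 0.47 and -0.63. Calls were spread over all pools. In mPGK-B 48 of 114 reporters were higher (42.1%) and 30 lower (26.3%), and in mPGK-C 28 of 108 (25.9%) and 40 (37.0%). The shares higher and lower were 43.0% and 33.3% in mPGK-A and 40% and 27.6% in mPGK-D. In mPGK-E they were 33.6% and 40.5%, and in mPGK-F 35.0% and 30.1%. These shares were not compared with each pool's shares over all its integrations. Whether pools differ on chromosome 16 alone was therefore not tested. The replicates of a pool are cultures split from one population, so these p-values measure the spread between such cultures and not that between separately made pools.

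**Figure D1:**
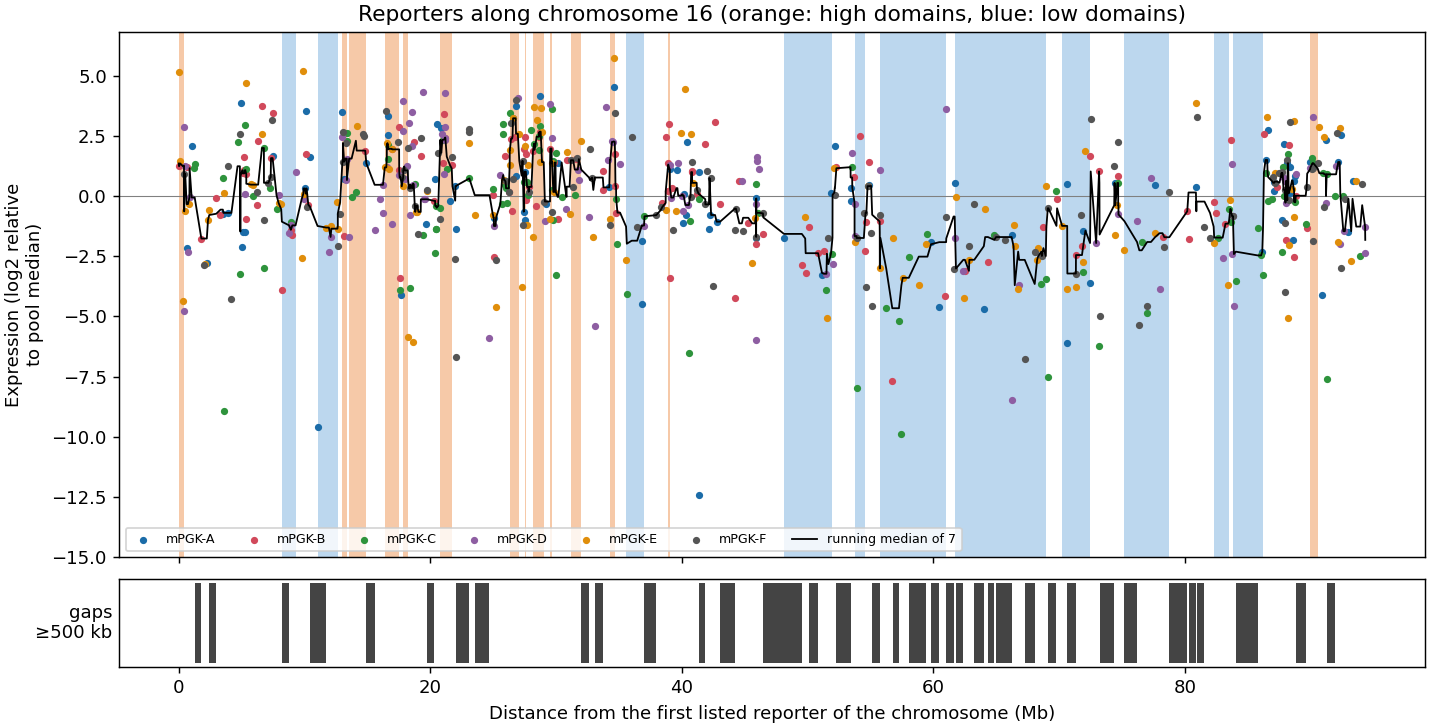
Expression (log2 relative to the pool median) of the 659 reporters against distance from the first listed reporter, in Mb, with points coloured by pool, a running median of 7 reporters as a line, high domains in orange and low domains in blue. The lower strip marks the 40 gaps of at least 500 kb, 24 of which begin between 50 and 90 Mb of the chromosome, where the running median is mostly below 0.

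Along its length the chromosome fell into a mixed and densely hit part up to 50 Mb, a low and sparsely hit part from 50 to 90 Mb, and a short densely hit end. In 10 Mb blocks counted from the first base, the highest was block 4 (chr16:30000001-40000000) with 109 reporters and a mean of 1.05. In it, 62 were called higher (56.9%, against 36.8% of all integrations) and 16 lower (14.7%, against 33.8%). Its pool means ran from 0.68 in mPGK-C to 1.57 in mPGK-A and all 6 were above 0. The lowest was block 7 (chr16:60000001-70000000) with 31 reporters and a mean of -2.68. There, 2 were called higher (6.45%) and 26 lower (83.9%). Its pool means ran from -4.41 in mPGK-B to -0.42 in mPGK-D and all 6 were below 0. The ranges of these blocks over pools did not overlap. These blocks and stretches were drawn after the values were seen and are described without a test.

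The stretch of 40 Mb from 50 to 90 Mb held 164 reporters, or 4.1 per Mb, against 8.1 per Mb before it (405 reporters) and 9 per Mb after it (90 reporters). These densities divide by whole 10 Mb blocks, while listed positions ran only from chr16:3862305 to chr16:98198601. The densities before and after the stretch would be higher over that range. Its median was -1.72, and 102 of its reporters were called lower (62.2%, against 33.8% of all integrations) and 24 higher (14.6%, against 36.8%). In the first 50 Mb, 176 were called higher (43.5%) and 91 lower (22.5%), and in the last block 40 higher (44.4%) and 21 lower (23.3%). The mean of the stretch was -1.25 in mPGK-A, -1.17 in mPGK-B, -3.16 in mPGK-C, -1.52 in mPGK-D, -1.71 in mPGK-E and -1.52 in mPGK-F. All 6 pools were low there, mPGK-C the most. Minus the rest of the chromosome in the same pool, the stretch was at -2.03 ± 0.58 (SD, n = 6 pools), a 4.07-fold lower output, and pools ranged from -1.37 in mPGK-A to -3.11 in mPGK-C. It held 21 of the 42 reporters more than 16-fold below the pool median and none of the 10 more than 16-fold above. Its reporters had a median of 1500.5 DNA reads, against 1407 in the first 50 Mb, 1670.5 in the last block and 1676 on the other autosomes.

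**Figure D2:**
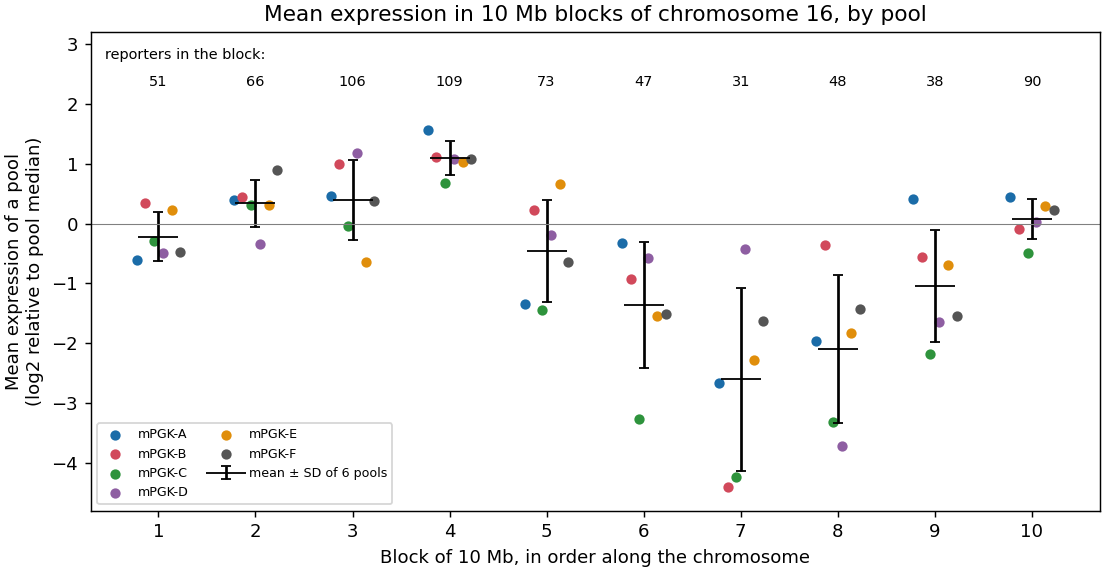
Mean expression (log2 relative to the pool median) of each pool's reporters in 10 Mb blocks numbered along the chromosome, with the mean ± SD of the 6 pools as a bar and the number of reporters in the block above it. All pools are above 0 in block 4 and below 0 in blocks 6, 7 and 8.

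The low stretch was not uniform. Its 24 reporters called higher came from all pools but mPGK-C, and several stood at shared places. In block 9, mPGK-E at chr16:84768271 had 1443 and 1286 DNA reads and 6917 and 6683 RNA reads in its cultures, with values of 3.82 and 3.89. The next reporter, of mPGK-F at chr16:84785255, had values of 2.91 and 3.70. These 2 reporters, in separate pools and 17.0 kb apart, were the only ones of block 9 above 3. Another group lay in block 6, where mPGK-E at chr16:55985051 was at 1.16, mPGK-A at chr16:56022260 at 2.06 and mPGK-B at chr16:56146573 at 1.23, all called higher. These reporters were singled out after their values were seen.

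Domains were drawn by ordering the reporters, taking a running median of 7 and keeping stretches of at least 5 reporters at or beyond 1 log2 unit. Chromosome 16 had 14 high and 11 low domains. Each kind held 133 reporters (20.2%), but high domains covered 8.40 Mb (8.91% of the distance from the first to the last reporter) and low domains 30.7 Mb (32.6%). High domains were short, with a median span of 499 kb (91.6 to 1367 kb) and 15.8 reporters per Mb. Low domains were long, with a median span of 2225 kb (826 to 7247 kb) and 4.33 reporters per Mb. Domains are drawn over ordered reporters whatever the distance between them, so their spans also reflect the density of integrations. Position followed the blocks: 13 high domains began in the first 50 Mb and 1 in the last block, while 8 low domains began between 50 and 90 Mb and 3 before. Since the measured values draw the domains, their levels and the calls within them are a description and give the domains no support. The background for all such calls is 36.8% higher and 33.8% lower over all integrations. The running medians nearest the bounds were 1.02 inside and 0.996 outside for high domains, and -1.04 inside and -0.994 outside for low ones. The remaining 393 reporters (59.6%) had a median of 0.08.

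**Figure D3:**
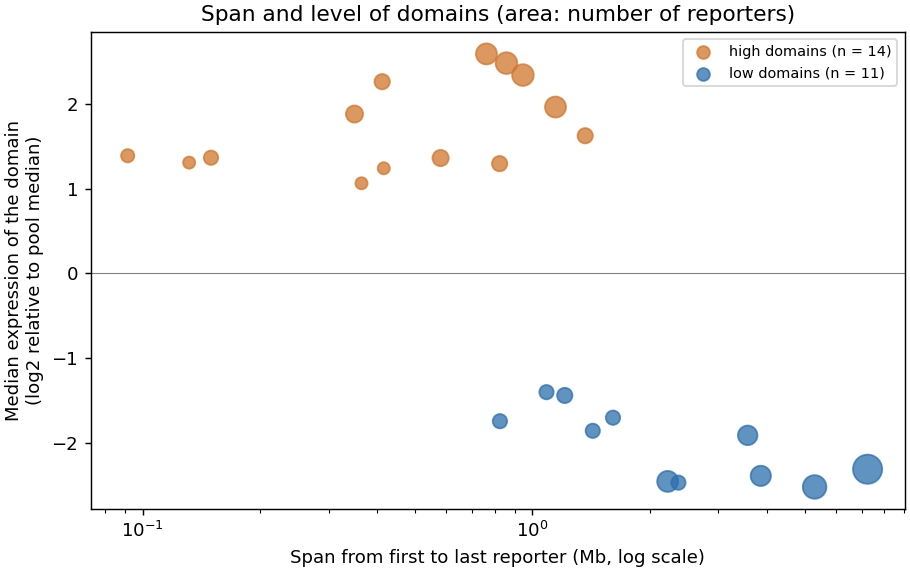
Median expression (log2 relative to the pool median) of each domain against its span in Mb on a log scale, with the area of a point proportional to its number of reporters. The 11 low domains span 0.826 to 7.25 Mb and the 14 high domains 0.0916 to 1.37 Mb.

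The high domain with the highest median, at chr16:30172268-30934870, held 15 reporters of all 6 pools with a median of 2.59, and 14 were called higher and none lower. Pool medians within it ran from 2.25 in mPGK-E (4 reporters) to 4.07 in mPGK-D (1 reporter). The deepest read member, mPGK-B at chr16:30610711, had 8694 and 7265 DNA reads, 16659 and 15725 RNA reads and culture values of 2.49 and 2.37. The single member below 0, mPGK-B at chr16:30363337, had 132 and 507 DNA reads and culture values of 0.76 and -2.08, so its cultures disagreed. Outside, the domain ended 49.3 kb before its first member at a reporter of 0.16 and 188 kb after its last at a reporter of -3.76.

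High domains of the same size differed in the pools behind them. At chr16:24619760-25565642, 16 reporters had a median of 2.34, with 13 called higher and 1 lower, and 6 of them came from mPGK-D and none from mPGK-E. At chr16:32020212-32878395, 16 reporters had a median of 2.48, with 13 called higher and 1 lower, and here 6 came from mPGK-E and none from mPGK-D. All 6 pools were present at chr16:20240625-21387283, where 14 of 15 reporters were called higher and 1 lower (median 1.96). The domain at chr16:16870231-17219953 held 10 reporters of 5 pools (median 1.88, 6 called higher and 1 lower). The domain at chr16:93827230-94408847, the only high one of the last 10 Mb block, held 9 reporters of 4 pools (median 1.36, 8 called higher and 1 lower). The other 8 high domains had 5 to 8 reporters each and medians of 1.06 to 2.26. Of these, chr16:3862305-4278077 was mixed, with a median of 1.24 but a mean of -0.25. Among its 5 reporters, 2 were called higher and 2 lower, the latter at -4.36 and -4.76. It lies at the start of the chromosome, where the running median covers fewer reporters. Of all 14, 10 held at least 4 pools, and 3 all 6. Single pools bore on these counts: high domains numbered 9 without mPGK-B and 7 without mPGK-D, and low domains 9 and 8.

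The longest low domain, at chr16:65595519-72842784, spanned 7.25 Mb and held 29 reporters with a median of -2.31, of which 23 were called lower and 1 higher. mPGK-E gave 10 of them, mPGK-F 7 and the other pools 3 each. All 6 pool medians within it were below 0, from -1.62 in mPGK-A to -3.70 in mPGK-D. The 8 reporters of the 2 Mb window chr16:70000001-72000000 were all called lower, with a window mean of -3.75, and the mean of the window chr16:66000001-68000000 was -2.59 (8 reporters). There mPGK-D at chr16:70683827 had 1197 and 1278 DNA reads against 26 and 32 RNA reads, and mPGK-F at chr16:71123541 had 465 and 469 DNA reads against 5 and 0 RNA reads.

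The low domain before it, at chr16:59585808-64885814, held 19 reporters with a median of -2.52, with 15 called lower and 2 higher. Its core, the window chr16:60000001-62000000, had the lowest mean of the 41 windows of 2 Mb with at least 5 reporters, -5.0, and all of its 7 reporters, from mPGK-B, mPGK-C and mPGK-E, were called lower. mPGK-C at chr16:60110690 had 1456 and 1387 DNA reads against 18 and 22 RNA reads. mPGK-C at chr16:61123057 had 1463 and 1754 DNA reads against 8 and 30 RNA reads. mPGK-B at chr16:60592793 had 405 and 186 DNA reads and no RNA read. The least reduced of the 7, mPGK-E at chr16:60614421, lay at -1.70 and -1.79 in its cultures, only 21.6 kb from the mPGK-B reporter without RNA. Both reporters called higher in this domain came from mPGK-D and sat at its ends. They were the only mPGK-D reporters in it, so that pool's median there was 2.36, while the medians of the other 5 pools were below 0. At chr16:59597459 mPGK-D was at 1.10 and 1.01 in its cultures, and at chr16:64885814, the last member, it was at 3.50 and 3.67 with 599 and 596 DNA reads and 2107 and 2457 RNA reads. The mPGK-F reporter 12.1 kb before that last member was at -0.85.

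The other low domains held fewer reporters, mostly below 0. At chr16:74093823-76318432, 15 reporters of 5 pools had a median of -2.45, with 11 called lower and 2 higher. At chr16:51982545-55838718, 14 reporters of all 6 pools had a median of -2.38, with 11 called lower and none higher, and every pool median there was below 0. At chr16:79053440-82622348, 13 reporters of all 6 pools had a median of -1.91, with 8 called lower and 1 higher, and the single mPGK-A reporter was at 0.46. At chr16:86143027-87354189, 8 reporters of 4 pools had a median of -1.44, with 5 called lower and none higher. The other 5 low domains had 7 reporters each and medians of -2.46 to -1.40. In all, of 133 reporters in high domains 101 were called higher and 10 lower. Of 133 in low domains 101 were called lower and 8 higher. Over all integrations 36.8% were called higher and 33.8% lower. Domains and calls use the same reads, so a surplus of calls on a domain's own side was built in. Reporters of opposite call sat inside both kinds.

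Runs count neighbouring reporters on the same side of the pool median, whatever their distance from it. The same values draw the runs, so a call against a run's side was hardly possible and the calls are a description. The chromosome had 123 runs of reporters above the pool median and 123 below, with a median length of 2 reporters on each side. The longest run below had 26 reporters, at chr16:65654156-72608817, over 6.95 Mb and all 6 pools, with 22 called lower and none higher. The next had 16 reporters at chr16:59600074-64873694 (5.27 Mb, 5 pools) and 14 at chr16:50308714-55514673 (5.21 Mb, 6 pools). The longest runs above had 12 reporters at chr16:24741398-25170646 (429 kb), all called higher and 6 of them from mPGK-D, then 10 at chr16:32311573-32740858 (429 kb), all called higher and from 4 pools. A run of 9 at chr16:20240625-20554191 and another of 9 at chr16:30397365-30934870, both with all members called higher, each came from 5 pools. Among the 19 autosomes the longest run below ranked 3rd from the highest and the longest run above ranked 16th. In number of reporters chromosome 16 ranked 17th.

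Edges were placed where the medians of 5 reporters on either side differed most, so the levels and calls beside them are a description. The clearest in calls was the right end of the low stretch, between chr16:90070692 and chr16:90139647. Over 69.0 kb the median rose from -2.46 to 2.56, a 32.4-fold step. The 5 reporters to its left, of mPGK-A and mPGK-C, were all called lower, and 4 of the 5 to its right, from 4 pools, were called higher. At the edge itself mPGK-C had 169 and 181 DNA reads against 4 and 9 RNA reads, and mPGK-B had 510 and 708 DNA reads against 1056 and 1605 RNA reads. Those left reporters were spread over 2161 kb and the right ones over 294 kb, so the edge is known well on one side only.

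The largest step, 40.9-fold from 1.96 to -3.39, lay after chr16:21381925, 1 reporter before the end of the high domain at chr16:20240625-21387283, with 4 of 5 called higher on the left and 3 of 5 called lower on the right. The right side there was mixed, with its first members at 1.07 and 0.86 and the next 3, of mPGK-B, mPGK-C and mPGK-A, between -4.11 and -3.39. The medians of 5 reporters stepped from 0.55 to -4.55 (34.2-fold) at the 998 kb between chr16:79053440 and chr16:80050980, but this places no edge there. The reporters on either side of it were at -2.25 and -1.04, both inside a low domain, and the nearest high reporter, mPGK-F at 2.25, lay 475 kb before that domain, at chr16:78578099. Steps down of 20.9-fold after chr16:30820910 and of 17.5-fold after chr16:38583087 lay near the right ends of high domains, in each case 1 reporter from the domain's last member. The distance from the outermost members of a domain to the next reporter outside had a median of 91.8 kb for high and 114 kb for low domains, which bounds how finely edges can be placed.

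The 40 gaps of at least 500 kb between neighbouring reporters added up to 32.0 Mb, 33.9% of the distance from the first to the last reporter. Of these, 24 began between 50 and 90 Mb, 14 before and 2 after, and 17 lay inside a single low domain and none inside a high one. The longest, 1739 kb at chr16:87909672-89648698, had mPGK-C reporters on both sides, at -3.54 and -1.32. The next, 1649 kb at chr16:50333530-51982545 and 1420 kb at chr16:51982545-53402461, were parted by a single mPGK-A reporter at -1.76, so that 3.07 Mb held a single integration of the 6 pools. Of the other long gaps, the 1423 kb at chr16:82622348-84044907 and the 1127 kb at chr16:56146573-57274037 were flanked by reporters between -0.63 and 1.23. The 1177 kb at chr16:46903002-48079846 and the 1172 kb at chr16:27395177-28567522 each ended at a very low reporter, mPGK-B at -4.23 and mPGK-D without RNA (182 and 51 DNA reads). The 1162 kb at chr16:77075411-78237533 had mPGK-F reporters on both sides, at -4.96 and 1.26. Whether sites in these gaps were hit but could not be mapped was not tested.

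Reporters at the edge of a gap were lower than the others in every pool. The 76 reporters next to a gap had a median of -1.48, with 44 called lower (57.9%) and 8 higher (10.5%), while the other 583 had a median of 0.24, with 170 lower (29.2%) and 232 higher (39.8%). The difference in means was -3.52 in mPGK-A, -1.81 in mPGK-B, -1.65 in mPGK-C, -2.60 in mPGK-D, -1.27 in mPGK-E and -1.50 in mPGK-F, with a mean of -2.06 ± 0.85 (SD, n = 6 pools). The mPGK-A value includes the reporters without RNA at chr16:45213782 (-12.4) and chr16:14896322 (-9.57), whose values rest on the pseudocount. With a pseudocount of 5 RNA reads the mean difference was -1.68 ± 0.44 (SD over pools). Where the reporters lay moved with lying next to a gap. Between 50 and 90 Mb the medians were -1.82 for 45 gap-edge reporters and -1.60 for 119 others. Outside that stretch they were -0.79 for 31 gap-edge reporters, with 13 called lower (41.9%), and 0.59 for 464 others, with 99 called lower (21.3%). The comparison was added after the values were seen and was not tested.

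The number of reporters in a window and their level went the same way. Over the 41 windows of 2 Mb with at least 5 reporters, Pearson's r was 0.51 and Spearman's rho 0.47 between number and mean, a description of windows that share pools and libraries. The 3 highest means were 1.52 at chr16:26000001-28000000 (5 reporters), 1.39 at chr16:18000001-20000000 (7 reporters) and 1.37 at chr16:32000001-34000000 (33 reporters, 22 called higher and 4 lower). In the first of these windows, 4 reporters of 3 pools lay within 563 bp, after a gap of 1086 kb. mPGK-F at chr16:26963004 and chr16:26963425 was at 2.80 and 2.68, mPGK-E at chr16:26963205 at 2.20, all called higher, and mPGK-C at chr16:26962862 at 0.73, not called. This cluster was singled out after its values were seen.

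**Figure D4:**
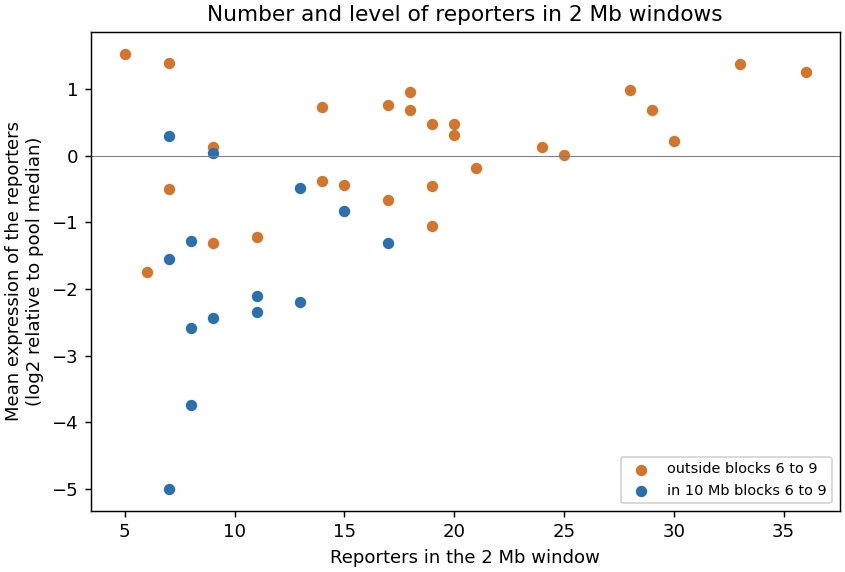
Mean expression (log2 relative to the pool median) of the reporters in each 2 Mb window against their number, for the 41 windows with at least 5 reporters, with windows between 50 and 90 Mb in blue. No window with more than 17 reporters lies between 50 and 90 Mb, and the lowest mean, -5.0, belongs to a window of 7.

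Reporters resembled their neighbours of other pools. In each pool, reporters whose neighbours of other pools within 100 kb averaged above 0 were compared with those whose neighbours averaged below 0. The former were higher by 1.73 in mPGK-A, 1.44 in mPGK-B, 2.72 in mPGK-C, 1.73 in mPGK-D, 1.55 in mPGK-E and 1.97 in mPGK-F. The mean difference was 1.86 ± 0.46 (SD, n = 6 pools), or 3.62-fold, and all 6 pools had this direction (exact sign-flip permutation test over pools, two-sided, p = 0.03125, the smallest that 6 pools allow). The pools serve as each other's neighbours, so a close pair enters the values of both its pools and the 6 values are not independent, which the test does not take into account. This counts 279 reporters with high and 220 with low neighbours. The 160 without such a neighbour had a median of -0.79, with 70 called lower (43.8%) and 37 higher (23.1%).

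A pool's own reporters were also set against domains drawn without it. With the domains of the other 5 pools, the left-out pool had 118 reporters in high domains, of which 84 (71.2%) were above 0, and 114 in low domains, of which 90 (78.9%) were below 0, summed over pools. The medians in high and low domains differed by 2.31 in mPGK-A, 3.18 in mPGK-B, 3.88 in mPGK-C, 2.22 in mPGK-D, 3.98 in mPGK-E and 2.52 in mPGK-F (mean 3.02 ± 0.79, SD, n = 6 pools). This comparison was added after the values were seen and has no test.

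**Figure D5:**
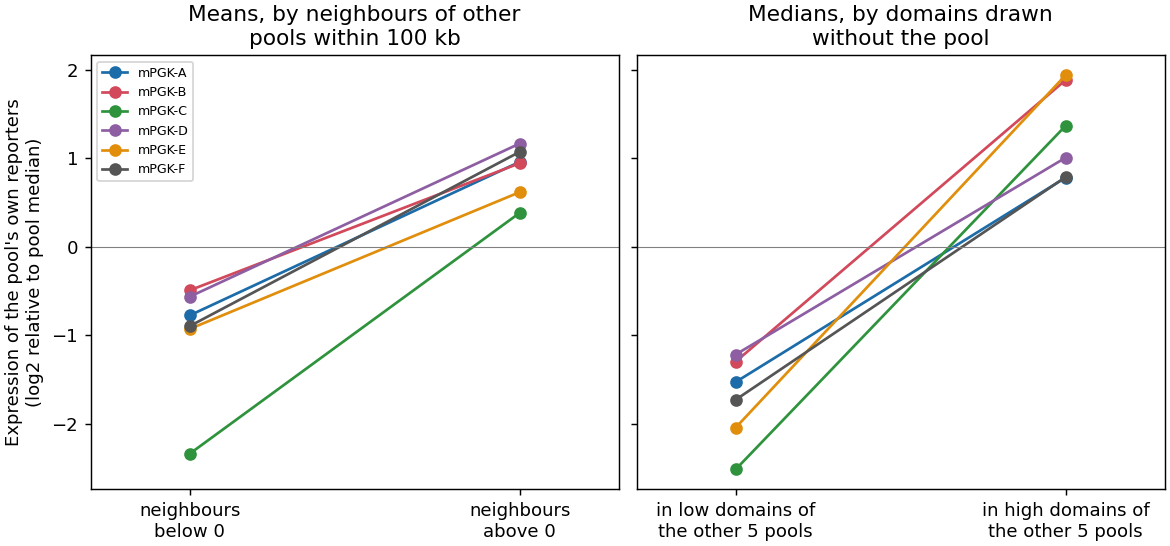
Left, mean expression (log2 relative to the pool median) of a pool's reporters by whether their neighbours of other pools average below or above 0. Right, median expression of a pool's reporters in low and high domains drawn from the other 5 pools. All 6 lines rise in both panels.

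Likeness, measured by Pearson's r, faded with distance. Across pairs from different pools, r was 0.43 at 0 to 5 kb (58 pairs), 0.31 at 5 to 50 kb (278 pairs), 0.19 at 50 to 200 kb (838 pairs), 0.11 at 200 to 1000 kb (3685 pairs) and 0.10 at 1000 to 5000 kb (15874 pairs). Pairs share reporters, so these values have no p. In the last class the other autosomes lay between -0.01 and 0.09, so chromosome 16 had the highest value of the 19 there, 0.0972 against 0.0868. In the other classes it lay within their range.

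Close pairs showed how far single sites can depart from their surroundings. The 58 pairs of different pools less than 5 kb apart, made of 95 reporters, had a median difference of 1.65 log2 units, with 40 (69.0%) on the same side of the pool median and 15 within 1 log2 unit. Both members were called in the same direction in 29 pairs and in opposite directions in 8. At chr16:31363796 and chr16:31363797, 1 bp apart and on opposite strands, mPGK-B was at 2.44 and mPGK-A at 1.02. mPGK-C and mPGK-F, 40 bp apart at chr16:94002997 and chr16:94003037, were at 1.59 and 1.12. All 4 of these were called higher. They were picked as the nearest pairs of different pools. In the next nearest, 142 bp apart at chr16:26962862 and chr16:26963004, mPGK-C was at 0.73, not called, and mPGK-F at 2.80, called higher.

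The pairs that differed most were chosen for their difference, so their values are a description. mPGK-E at chr16:9230757 had 1407 and 1988 DNA reads, 15221 and 14646 RNA reads and culture values of 5.00 and 4.39. Its neighbour of mPGK-B, 1834 bp away on the opposite strand at chr16:9228923, had 309 and 398 DNA reads, 80 and 54 RNA reads and culture values of -0.39 and -1.62, which is 50.8-fold lower. mPGK-A at chr16:76313693 had 94 and 282 DNA reads, 1 and 13 RNA reads and a value of -3.63, whereas mPGK-B 4739 bp on at chr16:76318432, on the same strand, had 711 and 594 DNA reads, 637 and 879 RNA reads and a value of 1.64 (38.7-fold). That pair lies at the right end of the low domain at chr16:74093823-76318432. In the pair 465 bp apart, mPGK-F at chr16:57751268 had 488 and 617 DNA reads and 76 and 51 RNA reads, and mPGK-C at chr16:57751733 had 391 and 306 DNA reads and no RNA read, both called lower. With the latter at the floor of 3 RNA reads they differ by at least 4.66 log2 units. The next pair differed by 4.79: mPGK-D at chr16:33379635 had 156 and 39 DNA reads, 331 and 353 RNA reads and a value of 3.83, and mPGK-E 3178 bp on had 2057 and 2142 DNA reads, 460 and 296 RNA reads and a value of -0.96.

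The highest reporter of the chromosome, mPGK-E at chr16:38443524, had 2267 and 2403 DNA reads, 42817 and 42816 RNA reads and culture values of 5.80 and 5.67, which is 53.5-fold above its pool median (edgeR, adjusted p = 3.49e-10). It had a high neighbour in another pool. mPGK-A at chr16:38445883, 2.36 kb away on the same strand, was the fifth highest of the chromosome, with 281 DNA reads in each culture, 2181 and 2208 RNA reads and values of 4.36 and 4.63. The second highest, mPGK-E at chr16:13767306 (5.23 and 5.18), stood alone, since its 2 neighbours within 100 kb had a median of -0.02. The third, mPGK-E at chr16:3884279, had only 103 and 226 DNA reads, and its cultures gave 5.87 and 4.44. Of the 5 highest, 4 came from mPGK-E.

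Reporters without RNA were not confined to low surroundings. mPGK-A at chr16:45213782 had 8442 and 7493 DNA reads and no RNA read, so its output was at least 1808-fold lower than the pool median, from a floor of 3 RNA reads over both cultures. Its 2 neighbours within 100 kb had a median of 0.44. mPGK-C at chr16:7477831 (734 and 602 DNA reads, at least 162-fold lower) likewise had neighbours with a median of -0.29. Others stood in low domains: mPGK-C at chr16:61316976 (1351 and 1239 DNA reads, at least 314-fold lower), mPGK-A at chr16:14896322 (1009 and 1227 DNA reads, at least 254-fold lower) and mPGK-D at chr16:70079222 (546 and 590 DNA reads, at least 118-fold lower). The remaining 3 without RNA, of which 2 lay in low domains, were at least 24.1-fold to 84.5-fold lower. Of the 8 reporters without RNA, 5 lay in low domains and none in a high one. These bounds cover counting error only, since PCR reads are not independent molecules.

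Of the 659 reporters, 364 lay on the plus strand and 295 on the minus strand, and mean expression on the plus strand minus that on the minus strand was -0.18 ± 0.41 (SD, n = 6 pools), smaller than the spread between pools. It was above 0 in mPGK-A alone, at 0.36, and lowest in mPGK-D, at -0.91. For 50 reporters (7.59%, against 5.73% of all integrations) the barcode was also listed in another pool at a different place. The values of such pairs were not alike (Pearson's r -0.17, Spearman's rho -0.22 over 50 pairs, 19 on the same side of the pool median). The mPGK-A reporter at chr16:38445883 is one of these.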

How the data were processed

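RNA and DNA barcode reads were counted in 2 cultures of each of 6 pools. The authors deposited raw counts per reporter and culture with the mapped position. The submitters' processing notes name the aligner Bowtie2 (2.0) and the build mm9. The merging of PCRs and the filtering of barcodes are not given in the sources used here. Totals cover listed barcodes, and the mapping libraries enter through the positions only. No mm9 annotation was used, so genes at the sites are not named.

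Expression used a pseudocount of 0.5 RNA reads. RNA and DNA counts were compared within each pool over all barcodes with edgeR 4.0.16 in R 4.3.3 (filterByExpr, TMM, ratios shifted to the pool median, Benjamini-Hochberg over 17857 integrations). TMM medians lay between -0.27 and -0.23. DESeq2 1.42.0 was an alternative. Replicate numbers pair RNA and DNA of the same culture, per the labels. Their deviations had correlations of -0.002 to 0.058. Other values came from Python 3.11.15, numpy 2.4.6, scipy 1.17.1 and pandas 2.3.3. Scripts were tested on simulated data.

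Reporters are not replicates, so comparisons were made over pools. Named items followed a rule: the 5 highest and 5 lowest reporters, the 6 domains of each kind with most reporters, the 3 longest runs of each kind (with ties), the 8 longest gaps, the 5 largest steps, the 3 highest and 3 lowest windows and the 3 most different close pairs. Blocks of 10 Mb, gap-edge reporters and left-out pools were added later. The members, lists and rules were chosen with earlier results of these data known.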

Additional observations from a re-analysis of the deposited data

How the results depend on the processing

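Calls on chromosome 16 numbered 213 higher and 249 lower at TMM scaling with no shift, against 240 and 214, which turns the side with more calls. They were 242 and 216 with DESeq2, and 240 and 214 both without a filter and with p-values adjusted within pools. With the replicate block, which pairs RNA and DNA of the same culture, they were 235 and 209, and 647 of 659 reporters kept their call with none reversed. A fit without a replicate could not be made, as 1 RNA against 1 DNA library leaves no residual degrees of freedom. The likeness to neighbours of other pools was 1.71 with a pseudocount of 5 RNA reads, 1.81 to 1.86 with single replicates and 1.53 to 1.66 with neighbours within 20 or 500 kb. It was 1.77 without mPGK-A, 1.71 without mPGK-B, 1.53 without mPGK-C, 1.81 without mPGK-D, 1.72 without mPGK-E and 1.58 without mPGK-F, each with an exact permutation p of 0.0625, the smallest that 5 pools allow. High domains numbered 9 without mPGK-B and 7 without mPGK-D, and 10 to 19 under the other alternatives, and low domains 8 to 12. Gaps numbered 9 at a minimum of 1 Mb and 40 to 51 without a pool. The low stretch from 50 to 90 Mb minus the rest stayed between -2.16 and -1.81 and the gap-edge difference between -2.09 and -1.50, in alternatives chosen after seeing the data. Low RNA counts limit the precision of low reporters, and spacing and the running median limit the placing of edges.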
